A study of Danio rerio with 24 samples.

Results

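Wildtype zebrafish larvae collected at the onset of light (Zeitgeber time 0, ZT0) were compared with wildtype larvae collected 3 h earlier, late in the night (ZT-3), across all genes. The comparison took 8 of the 24 RNA-seq samples of the study, namely the 4 wildtype pools of ZT0 and the 4 wildtype pools of ZT-3. Each pool held 6 whole larvae from a dish of their own at 5 days post-fertilization. The larvae were of an AB-derived strain, had the same grandparents as the klf9-/- mutants of the study, and were raised at 28.5 °C under 14 h of light and 10 h of dark with no drug or hormone added. Set beside them below are klf9-/- larvae of the same times, which carry a homozygous 2 bp deletion in the first exon of klf9, a Krüppel-like transcription factor gene, and wildtype larvae of ZT+2.5. Parents and clutches of the pools are not given. The p-values therefore measure the spread between dishes, and the later group was also 3 h older and was extracted as a set of its own. Time of day, age and extraction set cannot be told apart.

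The circadian clock of vertebrates is a feedback loop in which Clock and Bmal (Arntl) proteins activate the genes of their own repressors, the Period and Cryptochrome proteins, while Rev-erb and Ror nuclear receptors act in opposition on the Bmal genes. In zebrafish nearly every tissue holds such a clock, and light itself induces some of its genes, among them per2 and cry1a. Toward dawn the pineal gland ends its nightly output of melatonin, the retina shifts toward day vision, and cortisol also follows a daily rhythm.

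Total expected counts were 49713549 to 59393036 per pool at ZT0 and 53759898 to 64452247 at ZT-3 (exact permutation test, two-sided, p = 0.2, where 4 pools against 4 allow no p below 0.0286). The lowest, replicate 2 of ZT0, was above the sequence count on its label (49196377), and the reason is not known. The study laid the first principal component (PC1) of its own run largely to the time spent in lysis buffer. PC1 was recomputed here from all samples and was a covariate in the fits except where its absence is stated. Its scores were -1.44 to 0.72 SD at ZT0 and -0.92 to 1.15 SD at ZT-3 (difference -0.81 SD, exact permutation p = 0.286). RNA concentration, absorbance ratios and the shares of mitochondrial and of the 10 most abundant transcripts gave exact permutation p-values of 0.2 to 0.886. In whole larvae, fewer cells of a type and less RNA per cell cannot be told apart.

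Of 22620 genes tested, 292 (1.29%) rose and 143 (0.632%) fell at ZT0 relative to ZT-3, 1.92% in all. A gene was called where edgeR's quasi-likelihood test gave an adjusted p of at most 0.1 and the log2 fold change was at least 0.5 in size. Changes past 1 on the log2 scale were seen for 77 of the genes that rose and 27 of those that fell. Levels in the 4 ZT0 pools lay outside the range of the 4 ZT-3 pools for 264 of the genes called higher and 108 of those called lower. Over all tested genes 5% lay wholly above and 4.95% wholly below. The calls were made on these same pools, so the contrast is no separate support for them. The median log2 fold change of all tested genes was -0.00025, so positive and negative changes were about equally frequent. The scaling of the libraries sets most genes near zero, so a shift shared by most genes could not be seen. The number of calls changed with the pool left out. Without replicate 4 of ZT0 there were 123 higher and 39 lower genes, and without replicate 4 of ZT-3 there were 150 and 55. Replicate 4 had the highest PC1 score of the ZT0 pools (0.72 SD) and the lowest of the ZT-3 pools (-0.92 SD). Without either, time and PC1 are harder to separate in the fit. Without replicate 4 of ZT-3, fkbp5 kept its log2 fold change (1.18, against 1.17) at an adjusted p of 0.224, against 0.043. The log2 fold change of asb14b went from -1.24 to -0.89. The part of PC1 in the lost calls was not tested. Without replicate 3 of ZT0 there were 356 and 255, and without replicate 3 of ZT-3 there were 425 and 168. Levels below are in CPM (counts relative to the library total, scaled by the TMM method), 1 value per pool in the order of the replicate numbers. Among the 15 largest rises and falls named below, non-overlap was a condition for naming and is no separate support.

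Repressors of the clock loop were among the largest rises. Of 9 Period and Cryptochrome genes tested, 5 rose and 1 fell, with a list median of 1.37 on the log2 scale. The cryptochrome gene cry1b (ENSDARG00000011583) had 19.2, 15.96, 21.5 and 22.1 CPM in ZT0 pools, against 4.13, 4.01, 4.37 and 3.71 CPM in ZT-3 pools, a log2 fold change of 2.37 (SE 0.10, adjusted p = 3.1e-06). Its paralog cry1a (ENSDARG00000045768) had 68.9, 63.9, 68.8 and 77.7 CPM at ZT0, against 27.4, 22.04, 28.9 and 23.1 CPM at ZT-3 (log2 fold change 1.52, SE 0.094, adjusted p = 6.2e-05). For both, every ZT0 pool exceeded every ZT-3 pool by more than the whole spread within either group. Among the Period genes, whose proteins pair with cryptochromes, per1b (ENSDARG00000012499) had 188, 182, 201 and 207 CPM at ZT0, against 86.4, 80.8, 83.0 and 69.0 CPM at ZT-3, the smallest SE of the group (log2 fold change 1.37, SE 0.053, adjusted p = 2.2e-06). For per3 (ENSDARG00000010519), pools of ZT0 held 201, 168, 181 and 193 CPM and pools of ZT-3 75.9, 71.8, 71.5 and 58.4 CPM (log2 fold change 1.49, SE 0.082, adjusted p = 2.3e-05). The light-induced per2 (ENSDARG00000034503) was low at both times, with 14.0, 11.1, 11.3 and 14.3 CPM at ZT0 and 4.91, 4.43, 4.93 and 4.98 CPM at ZT-3 (log2 fold change 1.40, SE 0.11, adjusted p = 1.4e-04). The groups did not overlap for any of the 3 Period genes, and these calls held without each of the 8 pools in turn.

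The member that fell was cry3b, another cryptochrome gene, with 4.33, 3.30, 4.05 and 3.37 CPM at ZT0, against 6.20, 5.81, 6.25 and 6.56 CPM at ZT-3 (log2 fold change -0.79, SE 0.11, adjusted p = 0.0036). Its groups did not overlap. Of the members that were not called, per1a measured 66.3, 61.9, 64.3 and 72.9 CPM at ZT0 and 63.9, 59.8, 62.4 and 48.2 CPM at ZT-3, with overlapping groups and a log2 fold change of 0.28. The flavin protein gene cry4, kept in a list of 4 further cryptochromes and photolyases none of which was called, measured 8.65, 9.51, 12.3 and 9.38 CPM at ZT0 and 11.8, 14.8, 10.26 and 14.5 CPM at ZT-3 (log2 fold change -0.36, adjusted p = 0.32). Its groups overlapped.

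**Figure D1:**
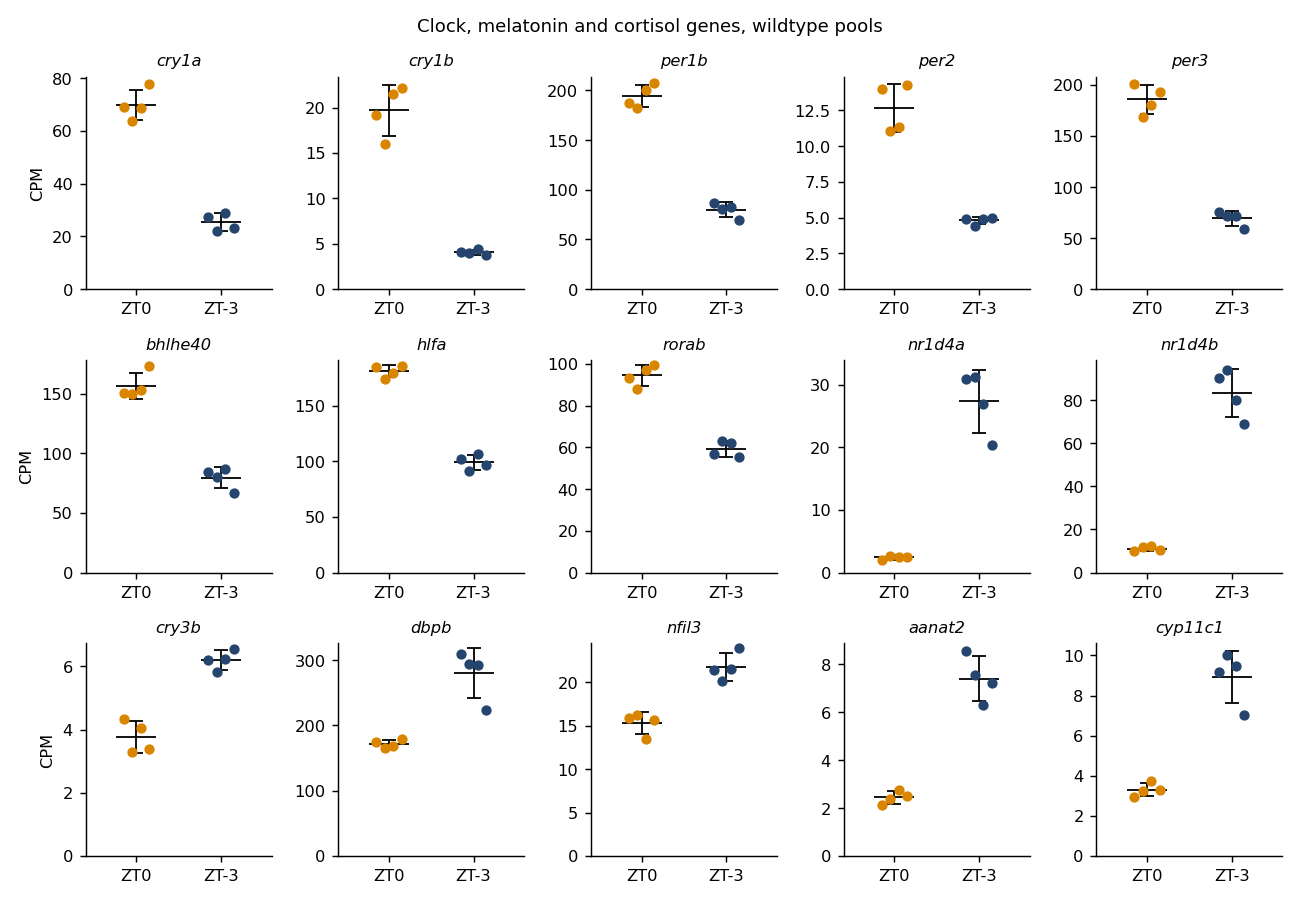
Levels in CPM (y axis, from 0) of 15 genes of the clock, of melatonin synthesis and of cortisol synthesis in wildtype pools at ZT0 (left, orange) and ZT-3 (right, blue). Points are pools, and bars are the mean and SD of 4. All 15 were called genes picked for the figure. The ZT0 pools lay above all ZT-3 pools for the first 8 genes, from cry1a to rorab, and below them for the other 7, from nr1d4a to cyp11c1.

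On the other arm of the loop, both nr1d4 genes, fish members of the Rev-erb family of transcriptional repressors, showed the 2 largest falls of all genes tested. The gene nr1d4a (ENSDARG00000031161) had 1.93, 2.68, 2.45 and 2.54 CPM in ZT0 pools, against 31.0, 31.2, 26.9 and 20.3 CPM in ZT-3 pools, a log2 fold change of -3.31 (SE 0.10, adjusted p = 5.1e-07). For nr1d4b (ENSDARG00000059370) the pools held 9.82, 11.8, 12.1 and 10.301 CPM at ZT0 and 90.04, 93.8, 80.3 and 69.1 CPM at ZT-3 (log2 fold change -2.81, SE 0.10, adjusted p = 2.6e-06). The highest ZT0 pool was thus far under the lowest ZT-3 pool for both. Of the 10 Rev-erb and Ror genes tested, the only other call was rorab, an activating Ror receptor, with 93.4, 88.1, 97.2 and 99.6 CPM at ZT0 and 56.8, 62.8, 62.0 and 55.3 CPM at ZT-3 (log2 fold change 0.72, adjusted p = 1.8e-04). Their relative nr1d2a was not called, at 64.8, 74.0, 53.9 and 83.3 CPM at ZT0 and 70.4, 68.8, 84.0 and 38.6 CPM at ZT-3 (log2 fold change 0.29, SE 0.24). Its groups overlapped.

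Among the 6 activators of the loop, none rose and 1 fell, with a median of -0.34. That gene was arntl2, a Bmal paralog, with 9.74, 10.1, 10.8 and 7.64 CPM at ZT0 and 12.8, 12.2, 10.9 and 15.02 CPM at ZT-3 (log2 fold change -0.52, adjusted p = 0.049). Its call was lost without replicate 1 or 4 of ZT-3 and without replicate 2 or 4 of ZT0, with adjusted p-values of up to 0.409, and without the PC1 covariate (0.153). The levels of clocka were 9.68, 9.85, 11.7 and 10.0 CPM at ZT0 and 13.3, 15.1, 12.8 and 14.5 CPM at ZT-3, with no overlap, but its log2 fold change of -0.42 was under the threshold. For clockb the log2 fold change was 0.16.

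The PAR bZIP factors (Tef, Hlf and Dbp) and their antagonist Nfil3 act on the same D-box element, through which zebrafish light responses also run. Of 9 such genes tested, 3 rose and 2 fell, with a median of 0.00. The genes hlfa and tefb rose, by 0.87 (adjusted p = 5.9e-05) and 0.55 (adjusted p = 0.0014) on the log2 scale. For hlfa the pools held 185, 174, 179.7 and 186 CPM at ZT0 and 102, 91.4, 106 and 96.7 CPM at ZT-3, and for tefb 99.5, 100.3, 113 and 106 CPM at ZT0 and 75.7, 71.8, 80.1 and 67.8 CPM at ZT-3. In contrast, dbpb had 175, 165, 168 and 179 CPM at ZT0, against 309, 294, 292 and 224 CPM at ZT-3 (log2 fold change -0.60, adjusted p = 0.0027). None of these groups overlapped, so members of the same activator family stood on either side of zero. The Nfil3 paralogs also differed in sign. The gene nfil3-6 had 7.79, 5.79, 4.36 and 10.7 CPM at ZT0 and 3.05, 2.88, 2.96 and 1.87 CPM at ZT-3 (log2 fold change 1.63, SE 0.28, adjusted p = 0.023), while nfil3 had 15.9, 16.2, 13.4 and 15.6 CPM at ZT0 and 21.4, 20.1, 21.5 and 23.9 CPM at ZT-3 (log2 fold change -0.56, adjusted p = 0.003). Without replicate 4 of ZT0 the adjusted p of nfil3-6 was 0.265, and without replicate 4 of ZT-3 it was 0.17. The fall of nfil3 was just under the fold threshold without replicate 4 of ZT-3, at -0.50. In a list of 4 Bhlhe and Ciart repressors, bhlhe40 (Dec1, which competes with Clock at E-boxes) rose, with 150.4, 149.7, 153 and 173 CPM at ZT0 and 84.5, 80.1, 87.0 and 66.8 CPM at ZT-3 (log2 fold change 1.07, SE 0.063, adjusted p = 2.7e-05).

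Genes that answer to stimulation and DNA repair genes were called about as often as genes in all (1.92%). Of 30 immediate early genes, the Fos, Jun, Egr and related factors, 1 was called, and the median was -0.01. It was crema, which encodes a cAMP-responsive modulator, with 13.04, 11.4, 10.4 and 10.8 CPM at ZT0 and 6.56, 6.57, 8.24 and 7.44 CPM at ZT-3 (log2 fold change 0.57, adjusted p = 0.008). The adjusted p of crema was 0.137 without replicate 4 of ZT0 and 0.11 without replicate 4 of ZT-3. None of 19 light-regulated DNA repair genes was called. The member nearest to a call was ddb2, a sensor of ultraviolet damage, at 0.49 (adjusted p = 0.0084).

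Melatonin synthesis was represented by 11 genes, of which 1 was called. Pineal arylalkylamine N-acetyltransferase, aanat2 (ENSDARG00000079802), whose activity sets the nightly rhythm of melatonin, had 2.12, 2.397, 2.74 and 2.52 CPM in ZT0 pools, against 8.56, 7.57, 6.31 and 7.20 CPM in ZT-3 pools (log2 fold change -1.51, SE 0.12, adjusted p = 1.3e-04). The groups were far apart, and the call held without each pool in turn.

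In the stress axis, cyp11c1 (ENSDARG00000042014), the 11-beta-hydroxylase that completes cortisol synthesis in the interrenal gland, was the only call among 17 genes tested. It had 2.95, 3.26, 3.74 and 3.27 CPM at ZT0, against 9.19, 10.0, 9.46 and 7.04 CPM at ZT-3 (log2 fold change -1.31, SE 0.11, adjusted p = 2.2e-04). The stress axis list had 7 positive and 10 negative changes, with a median of -0.12. Targets of the glucocorticoid receptor formed a list of their own. Of 30 tested, 24 had a positive log2 fold change, the median was 0.20, and 2 rose. Transcripts of fkbp5 (ENSDARG00000028396), a co-chaperone that restrains the receptor, were at 168, 128, 139 and 182 CPM at ZT0, against 85.5, 48.7, 80.1 and 66.9 CPM at ZT-3 (log2 fold change 1.17, SE 0.22, adjusted p = 0.043). The groups did not overlap, but the adjusted p was 0.322 without replicate 4 of ZT0 and 0.224 without replicate 4 of ZT-3. The other was tat, which encodes tyrosine aminotransferase of the liver, with 10.19, 10.21, 7.56 and 10.999 CPM at ZT0 and 4.46, 4.08, 4.73 and 5.33 CPM at ZT-3 (log2 fold change 1.02, adjusted p = 0.0033). The gene klf9, itself a target of the receptor, was not called, with 74.2, 57.6, 54.4 and 70.7 CPM at ZT0 and 49.9, 35.7, 65.6 and 47.9 CPM at ZT-3 (log2 fold change 0.33, SE 0.21). Its groups overlapped. Among 14 thyroid hormone genes, dio3b, a deiodinase that inactivates the hormone, rose by 0.67 (adjusted p = 0.023), with an adjusted p of 0.253 without replicate 4 of ZT0 and 0.177 without replicate 4 of ZT-3.

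Genes of the photoreceptors moved in both directions. Of 47 phototransduction genes, 8 rose and 2 fell, with a median of 0.06, where 1.92% of all genes tested were called. None of 8 visual opsins was called, and at that share few calls would be looked for among so few genes. The largest rise was that of pde6ha (ENSDARG00000102558), the inhibitory subunit of the cone phosphodiesterase, with 75.6, 79.8, 79.4 and 122 CPM in ZT0 pools, against 25.7, 28.5, 31.1 and 29.0 CPM in ZT-3 pools (log2 fold change 1.73, SE 0.15, adjusted p = 0.0018). One ZT0 pool, replicate 4, was higher than the rest. All 4 were above every ZT-3 pool, which was a condition for naming pde6ha. Cone arrestin, arr3a (ENSDARG00000056511), which ends the cone response, had 339, 356, 406 and 445 CPM at ZT0 and 234, 236, 223 and 201 CPM at ZT-3 (log2 fold change 0.91, SE 0.053, adjusted p = 2.7e-05). The calcium sensors rcvrn3, a recoverin, and guca1c, a guanylate cyclase activator, rose by 0.78 (adjusted p = 1.8e-04) and 1.32 (adjusted p = 8.3e-05). For guca1c the pools held 16.3, 15.7, 18.8 and 18.4 CPM at ZT0 and 9.52, 7.68, 7.91 and 5.84 CPM at ZT-3. The cone opsin kinase gene grk7a had 184, 180.0, 192 and 230.4 CPM at ZT0 and 161, 152, 151 and 119 CPM at ZT-3 (log2 fold change 0.57, adjusted p = 5.5e-04). None of these groups overlapped. Without the PC1 covariate grk7a was not called (log2 fold change 0.43), and 5 members rose and 4 fell. Named after their values were seen, the remaining members that rose were the kinase gene grk7b (0.67), the phosphodiesterase gene pde6c (0.58) and the arrestin gene sagb (0.57), and gngt2a, a cone transducin gamma subunit, fell by 0.66.

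The other fall was in guca1a (ENSDARG00000010454), which also activates guanylate cyclase as calcium drops. It had 6.23, 4.57, 5.27 and 5.50 CPM at ZT0, against 18.1, 14.3, 15.6 and 12.1 CPM at ZT-3 (log2 fold change -1.38, SE 0.14, adjusted p = 8.1e-04). Its change was thus opposite in sign to that of guca1c. Further retinal genes were grouped after their values were seen, so the counts are descriptions. Of 36 photoreceptor factors and channels, 8 rose and 8 fell. Without replicate 4 of ZT0, 6 rose and 3 fell, and without replicate 4 of ZT-3, 6 rose and 5 fell. Those that fell included nr2e3, a nuclear receptor of photoreceptor fate, with 10.1, 10.8, 13.3 and 13.2 CPM at ZT0 and 25.3, 22.2, 21.4 and 17.9 CPM at ZT-3 (log2 fold change -0.71, adjusted p = 6.3e-04). The calcium channel gene of the photoreceptor synapse, cacna1fa, had 2.79, 3.01, 2.78 and 2.25 CPM at ZT0 and 6.78, 6.67, 4.99 and 4.87 CPM at ZT-3 (log2 fold change -1.04, adjusted p = 0.0086). The guanylate kinase gene guk1b, of the cyclic GMP cycle, fell by 0.58 on the log2 scale (adjusted p = 4.5e-04). Among those that rose were slc1a8b, a glutamate transporter gene (1.13), and slc16a8, a lactate transporter gene (1.02).

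Retinoid handling and the matrix around the photoreceptors were likewise grouped afterwards, and 8 of 41 genes rose and 2 fell. The retinoid carrier of that matrix, rbp3, had 156, 146, 145 and 173 CPM at ZT0, against 94.6, 93.0, 90.2 and 72.5 CPM at ZT-3 (log2 fold change 0.93, SE 0.067, adjusted p = 8.1e-05). The matrix proteoglycan genes impg1b and impg1a rose by 1.197 and 1.004 (adjusted p = 1.0e-05 and 1.8e-04). The carotenoid oxygenase gene bco1l had 4.98, 3.63, 4.64 and 3.37 CPM at ZT0 and 0.852, 0.918, 1.34 and 1.23 CPM at ZT-3 (log2 fold change 1.76, adjusted p = 3.9e-04), and the retinol-binding gene rbp7a rose by 1.74 (adjusted p = 0.003). In contrast lrata, whose enzyme esterifies retinol for storage, had 5.84, 8.22, 8.16 and 7.07 CPM at ZT0 and 15.7, 15.8, 15.1 and 15.8 CPM at ZT-3 (log2 fold change -1.07, SE 0.11, adjusted p = 0.001). None of the groups of these 6 genes overlapped, which for bco1l and rbp7a was a condition for naming them among the largest rises. In the lens no call was made among 16 alpha and beta crystallins or 32 gamma crystallins, whose near-identical copies can share reads, where 1.92% of all genes tested were called.

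**Figure D2:**
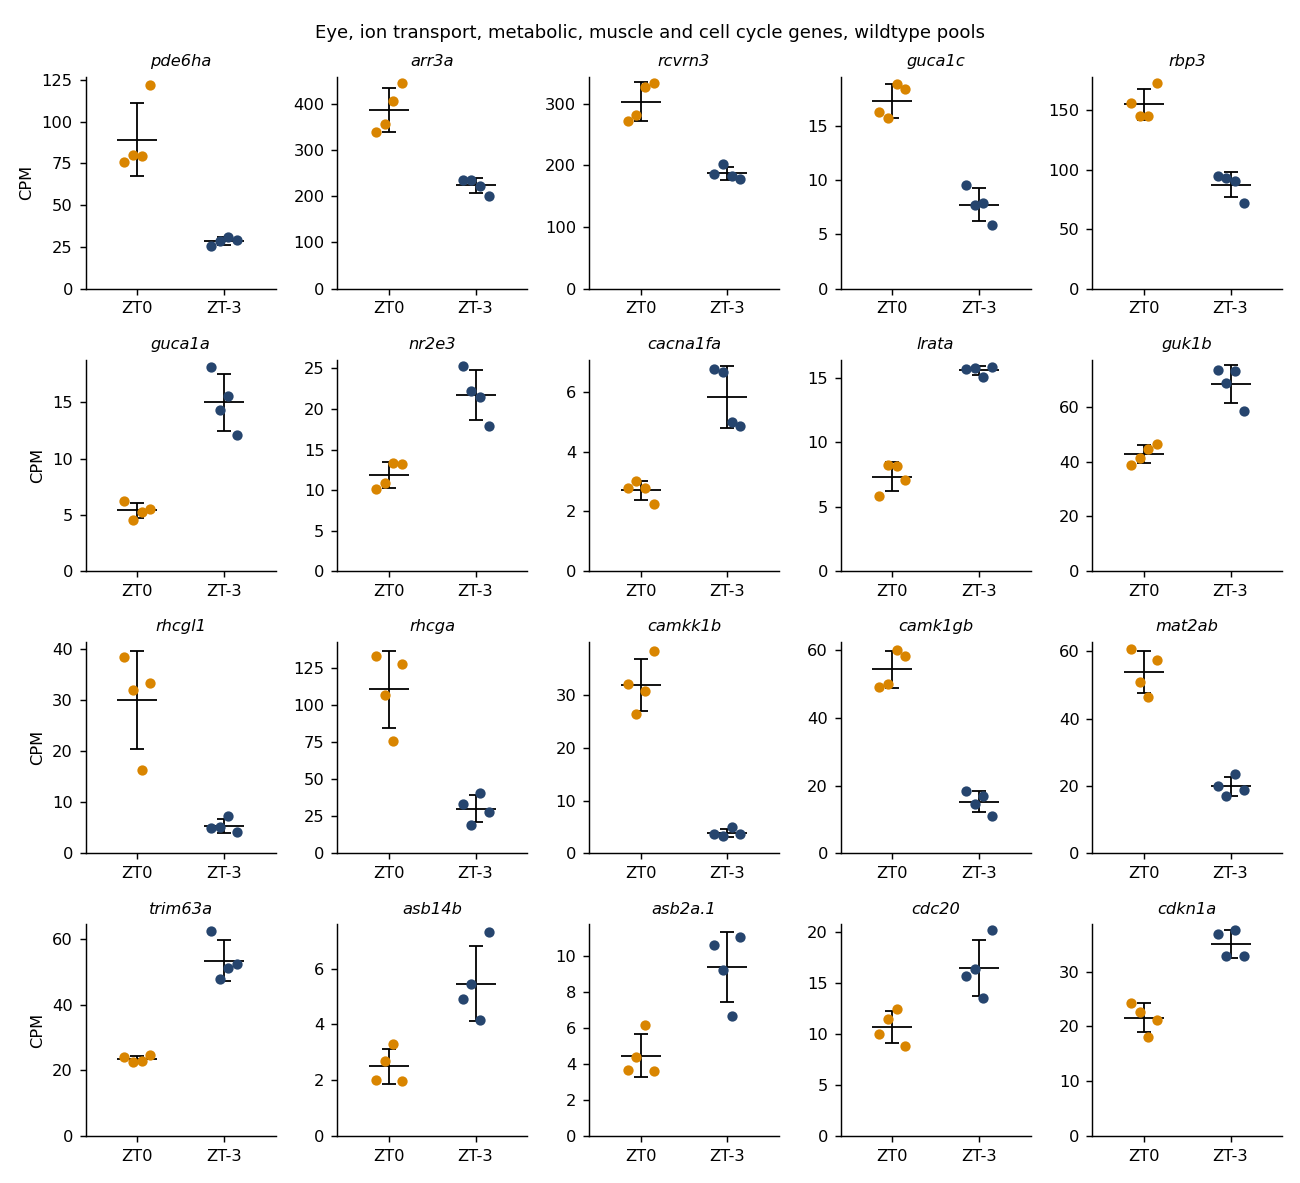
Levels in CPM (y axis, from 0) of 20 genes in wildtype pools at ZT0 (left, orange) and ZT-3 (right, blue), with 10 retinal genes followed by 10 genes of ion transport, calcium signalling, metabolism, muscle atrophy, the Asb family and the cell cycle. Points are pools, and bars are the mean and SD of 4. All 20 were called genes picked for the figure. In none did the ZT0 and ZT-3 pools overlap, which for some, such as rhcgl1, was a condition for naming.

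The largest rise of a named gene was in calcium signalling. The gene camkk1b (ENSDARG00000015134) encodes a kinase that switches on other calmodulin-dependent kinases. It had 32.0, 26.4, 30.8 and 38.2 CPM in ZT0 pools, against 3.72, 3.23, 4.94 and 3.75 CPM in ZT-3 pools (log2 fold change 3.07, SE 0.16, adjusted p = 5.9e-05). Among its substrates, camk1gb (ENSDARG00000008788) had 49.0, 50.02, 59.8 and 58.1 CPM at ZT0 and 18.3, 14.6, 16.8 and 11.1 CPM at ZT-3 (log2 fold change 2.01, SE 0.11, adjusted p = 2.7e-05). Its paralog camk1ga rose by 1.304 (adjusted p = 0.015), with an adjusted p of 0.177 without replicate 4 of ZT0 and 0.118 without replicate 4 of ZT-3. In the family of 10 genes, assembled after these values were seen, 4 rose and none fell, the other being pnck at 0.98 (adjusted p = 0.059), with 0.649, 0.506, 0.636 and 0.613 CPM at ZT0 and 0.308, 0.380, 0.360 and 0.240 CPM at ZT-3. The call of pnck was lost without replicate 4 of ZT0 or replicate 1 or 4 of ZT-3, with adjusted p-values of up to 0.372. Outside any list, ppm1na, a protein phosphatase gene, had 13.4, 12.1, 14.4 and 15.7 CPM at ZT0 and 5.86, 3.78, 5.09 and 3.75 CPM at ZT-3 (log2 fold change 1.72, adjusted p = 1.8e-04), and prnpa, a prion protein gene, had 19.3, 19.7, 22.3 and 24.7 CPM at ZT0 and 8.68, 8.14, 9.88 and 6.36 CPM at ZT-3 (log2 fold change 1.52, adjusted p = 5.9e-05). The dCTP pyrophosphatase gene dctpp1 rose by 1.53 (adjusted p = 0.0024). Levels of ppm1na, prnpa and dctpp1 did not overlap between groups, which was a condition for naming them.

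Ammonia channels of the Rh family, through which skin and gill ionocytes excrete nitrogen, were among the largest rises. For rhcgl1 (ENSDARG00000007080) the pools held 38.5, 32.0, 16.3 and 33.5 CPM at ZT0, against 4.89, 5.16, 7.43 and 4.24 CPM at ZT-3 (log2 fold change 2.41, SE 0.35, adjusted p = 0.021). For rhcga (ENSDARG00000003203) they held 133, 107, 75.8 and 128 CPM at ZT0 and 33.2, 19.1, 41.1 and 28.0 CPM at ZT-3 (log2 fold change 1.83, SE 0.31, adjusted p = 0.034). Replicate 3 was the lowest ZT0 pool and the highest ZT-3 pool in both genes. The groups stayed apart, which was a condition for naming the largest rises. The gene rh50 was scarce, with 3.12, 2.64, 1.13 and 1.41 CPM at ZT0 and 0.344, 0.269, 0.571 and 0.416 CPM at ZT-3 (log2 fold change 1.93, adjusted p = 0.0096). In the family of 7 genes, assembled after these values were seen, 3 rose, but none did without replicate 4 of ZT0 (adjusted p 0.15 to 0.307) or replicate 4 of ZT-3 (0.102 to 0.185). In the list of 21 skin ionocyte markers, rhcgl1 was the only call, and the median was 0.01. The summed level of that list was 1350 to 1715 CPM at ZT0 and 1245 to 1439 CPM at ZT-3.

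Of 38 genes of nitrogen and amino acid breakdown, grouped after values were seen, 10 rose and none fell, with a median of 0.21, and 4 rose without replicate 4 of either time. The methionine adenosyltransferase gene mat2ab (ENSDARG00000037121), which makes the methyl donor of the cell, had 60.6, 51.0, 46.6 and 57.4 CPM at ZT0, against 20.1, 17.1, 23.6 and 18.9 CPM at ZT-3 (log2 fold change 1.41, SE 0.12, adjusted p = 7.5e-04). The proline dehydrogenase gene prodha had 35.7, 34.5, 38.05 and 39.4 CPM at ZT0 and 23.5, 20.5, 21.4 and 22.6 CPM at ZT-3 (log2 fold change 0.77, adjusted p = 1.9e-04). The threonine dehydrogenase gene tdh had 279.6, 277, 298 and 351 CPM at ZT0 and 189, 169.9, 206 and 168 CPM at ZT-3 (log2 fold change 0.80, adjusted p = 7.2e-04). These calls, and that of tat, held without each pool in turn. The arginase gene arg2 (1.07), the ornithine aminotransferase gene oat (0.65), the mitochondrial carrier genes slc25a15b (0.80) and slc25a29 (0.59), and the urea transporter gene slc14a2 (0.99) rose as well, with adjusted p-values of 0.00995 to 0.0212. Each of these 5 was lost without replicate 4 of ZT0 (0.171 to 0.246) and without replicate 4 of ZT-3 (0.112 to 0.196). The glutaminase gene gls2a (1.08, adjusted p = 0.096) was lost when any of 6 pools was left out, among them the same replicates, at up to 0.467.

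Of 48 cytochrome P450 genes of families 1 to 4, enzymes of drug, steroid and fatty acid metabolism, 9 rose and 1 fell, with a median of 0.19. Without replicate 4 of either time, 3 rose and none fell. The leading member, cyp2ad6 (ENSDARG00000042956), had 15.8, 13.1, 12.7 and 16.3 CPM at ZT0, against 3.79, 4.31, 5.21 and 3.76 CPM at ZT-3 (log2 fold change 1.78, SE 0.14, adjusted p = 1.8e-04). Its neighbours in the family cyp2ad3 and cyp2ad2 rose by 0.81 and 0.87 (adjusted p = 0.0065 and 0.0054), and near-identical copies in this family can share reads. Among sulfotransferases, grouped after values were seen, 3 of 19 rose, and none did without replicate 4 of either time. In a family of 16 sugar transporters, also grouped afterwards, 3 rose, and 1 did without replicate 4 of either time. Transcripts of the leading member slc2a1a, the glucose carrier Glut1, were at 47.7, 46.2, 44.2 and 46.8 CPM at ZT0 and 22.8, 25.1, 26.8 and 20.7 CPM at ZT-3 (log2 fold change 0.98, SE 0.081, adjusted p = 1.8e-04). Of 27 genes of fatty acid synthesis and lipid storage, fasn, the fatty acid synthase gene, rose by 0.54 (adjusted p = 7.4e-04), but was under the fold threshold without PC1 (0.40) and with all 24 samples in the fit (0.48). The gene plin1, whose protein coats lipid droplets, fell by 0.78 (adjusted p = 0.023), though at 0.209 without replicate 4 of ZT0 and 0.244 without replicate 4 of ZT-3. For fabp11b, a fatty acid-binding protein gene, the log2 fold change was -1.001 (adjusted p = 0.0033). No gene was called among 30 of cholesterol synthesis (median 0.05) or 44 of gluconeogenesis and fasting (median 0.06), where 1.92% of all genes tested were called. Levels at ZT0 lay wholly above those at ZT-3 for 9 of the fasting genes and wholly below for 2, against 5% and 4.95% of all tested genes. No cholesterol gene lay wholly above or below. The largest of the fasting genes, pck1, which controls gluconeogenesis, measured 0.92 (adjusted p = 0.11), with no overlap between groups. It was called in 5 of 20 alternatives, among them DESeq2 (adjusted p = 0.0155) and the fit without PC1 (0.078), and up to 5 fasting genes were called when a pool was left out.

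Muscle regulatory and atrophy genes gave 1 call, a fall. The gene trim63a (ENSDARG00000028027), a ubiquitin ligase of muscle atrophy, had 24.1, 22.7, 22.9 and 24.6 CPM at ZT0, against 62.5, 47.9, 51.2 and 52.4 CPM at ZT-3 (log2 fold change -1.15, SE 0.082, adjusted p = 8.1e-05). Of the 20 genes of that list tested, 13 had a negative change. Genes of the Asb family, ankyrin repeat proteins that bring substrates to ubiquitin ligases, were grouped after their values were seen. Of 21 tested, 18 had a negative change and 4 fell. For asb14b the pools held 2.02, 2.70, 3.29 and 1.96 CPM at ZT0 and 4.91, 5.45, 4.17 and 7.32 CPM at ZT-3 (log2 fold change -1.24, adjusted p = 0.025), and for asb2a.1 3.63, 4.40, 6.14 and 3.63 CPM at ZT0 and 10.6, 9.18, 6.68 and 11.05 CPM at ZT-3 (log2 fold change -1.09, adjusted p = 0.069). The scarce asb15b had the largest fall of the family, -2.12 (adjusted p = 0.028), from at most 29 expected counts in a ZT0 pool and 123 in a ZT-3 pool, and asb15a fell by 0.71 (adjusted p = 0.079). The groups were apart for all 4, but no member was called without replicate 4 of ZT0 (adjusted p 0.21 to 0.384) or replicate 4 of ZT-3 (0.302 to 0.499). None of 26 fast muscle markers was called, where 1.92% of all genes tested were called, and their median was -0.0049.

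Of the genes with the largest falls that belong to no list, ppp1r27b, of a phosphatase inhibitor family, fell by 1.19 (adjusted p = 0.023), and its call was lost without replicate 4 of ZT0 (0.147) and without replicate 4 of ZT-3 (0.335). The transporter gene SLC15A5 fell by 1.08 (adjusted p = 0.005).

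Of 36 heat shock and cold-inducible genes, 3 rose and none fell, with a median of 0.14. The heat shock factor gene hsf2 had 51.5, 47.1, 46.6 and 53.0 CPM at ZT0, against 27.8, 26.6, 28.8 and 27.5 CPM at ZT-3 (log2 fold change 0.85, SE 0.057, adjusted p = 6.0e-05). The collagen chaperone gene serpinh1b had 35.7, 37.3, 29.2 and 42.6 CPM at ZT0 and 20.2, 18.8, 21.5 and 21.4 CPM at ZT-3 (log2 fold change 0.83, adjusted p = 0.0068). Neither pair of groups overlapped. The call of hsp90aa1.1, a chaperone of myosin folding (0.68, adjusted p = 0.09), was lost without replicate 2 or 4 of ZT0 and without replicate 2, 3 or 4 of ZT-3, at up to 0.479. No call was made among 33 genes of endoplasmic reticulum folding or 35 antioxidant genes, where 1.92% of all genes tested were called.

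Cell cycle lists leaned apart with few calls. Of 54 DNA replication genes, 51 had a positive log2 fold change, but none was called (median 0.18). Levels at ZT0 lay wholly above those at ZT-3 for 21 of them and wholly below for none, against 5% and 4.95% of all tested genes. Of 57 mitosis genes, 52 had a negative change and 4 fell (median -0.29). Levels at ZT0 lay wholly below those at ZT-3 for 5 of the mitosis genes and wholly above for none, against 4.95% and 5% of all tested genes. Their summed level overlapped between the times, at 733 to 953 CPM at ZT0 and 823 to 1144 CPM at ZT-3. The leading member was cdc20, an activator of the anaphase-promoting complex, with 10.0, 11.5, 12.5 and 8.84 CPM at ZT0 and 15.7, 16.4, 13.5 and 20.2 CPM at ZT-3 (log2 fold change -0.72, SE 0.14, adjusted p = 0.036). The cyclin genes ccnb3 and ccnb1 fell by 0.65 and 0.59 (adjusted p = 0.095 and 0.083), and bub1bb, of the spindle checkpoint, whose groups overlapped, fell by 0.50 (adjusted p = 0.099). These counts changed with the pool left out. No mitosis gene was called without replicate 4 of either time (medians -0.21 for ZT0 and -0.15 for ZT-3), whereas 15 were without replicate 3 of ZT0 and 14 without replicate 3 of ZT-3. Without the PC1 covariate 1 was called (median -0.22). Of 21 cell cycle brakes, the only call was cdkn1a, which encodes the inhibitor p21, a target of p53. Its pools held 24.3, 22.7, 18.1 and 21.2 CPM at ZT0 and 36.8, 32.8, 37.6 and 32.9 CPM at ZT-3 (log2 fold change -0.73, SE 0.096, adjusted p = 0.0036), with no overlap, and the call held without each pool in turn.

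**Figure D3:**
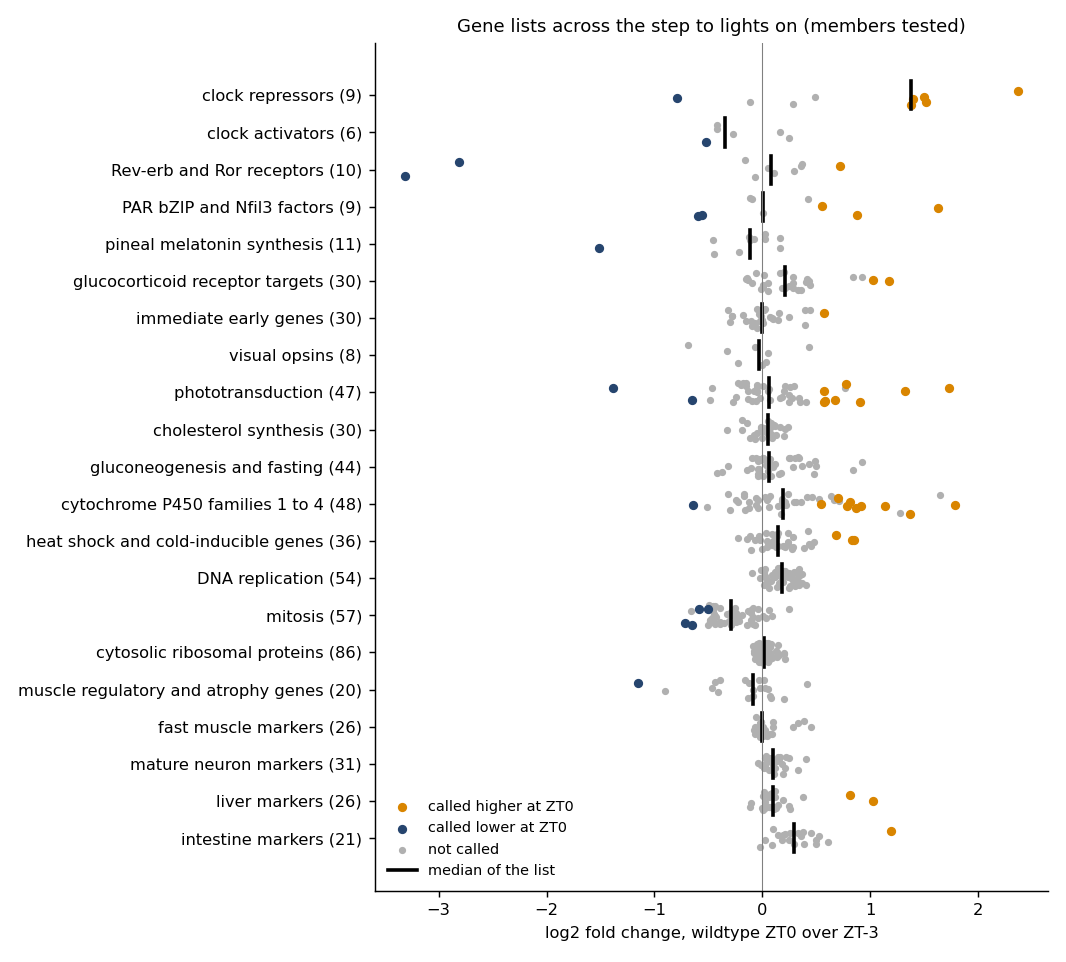
Log2 fold change of wildtype ZT0 over ZT-3 (x axis) for the tested members of 21 gene lists, with the number of members in brackets. Orange points were called higher at ZT0, blue points lower and grey points were not called, and black bars are list medians, which run from -0.34 for clock activators to 1.37 for clock repressors.

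Markers of organs were read for differences in the makeup of the pools. No member was called among markers of mature neurons (31 genes, median 0.10), differentiating neurons (26, -0.01), exocrine pancreas (21, 0.17), endocrine pancreas (15, -0.02), neutrophils and macrophages (18, 0.03), myelin (13, -0.07) or erythroid cells (24, 0.03). Over all genes tested the share called was 1.92%, so few calls would be looked for in lists of this size. Changes were positive in 29 of 31 mature neuron and 19 of 21 exocrine pancreas markers and negative in 12 of 13 myelin markers. In the other lists the signs were more mixed. Of 26 liver markers, tat and cyp2ad3 rose, 23 had a positive change and the median was 0.10. Of 21 intestine markers, 20 were positive, the median was 0.30, and 1 was called. That gene, apoa4a, an apolipoprotein of fat absorption, had 8.70, 7.30, 3.58 and 2.84 CPM at ZT0 and 0.598, 0.744, 1.62 and 3.25 CPM at ZT-3, so that its groups overlapped (log2 fold change 1.19, adjusted p = 0.005). Its call rested on the PC1 covariate, without which the adjusted p was 0.137. The summed intestine level was 2655 to 4032 CPM at ZT0 and 1525 to 2960.5 CPM at ZT-3, and that of the liver 5641 to 8894 CPM at ZT0 and 3798 to 7515 CPM at ZT-3. Summed exocrine pancreas markers were at 1380 to 5814 CPM at ZT0 and 1147 to 2321 CPM at ZT-3. The part of these organs in the rises of tat and the P450 genes was not tested. Of 8 thymus markers, foxn1, the factor of the thymic epithelium, rose by 0.65 (adjusted p = 0.046), at 0.335 without replicate 4 of ZT0 and 0.101 without replicate 2 of ZT0. Of 9 globins none was called, the lowest being hbae5 at -1.50 (adjusted p = 0.22). Of 23 pigment cell genes, 12 had a positive and 11 a negative change, with a median of 0.02. Of these, mitfa, the master factor of melanocytes, fell by 0.89 (adjusted p = 0.023) and pmelb, of the melanosome fibre, by 0.51 (adjusted p = 0.005). The call of mitfa was lost without replicate 4 of ZT0 (0.163) or ZT-3 (0.208), and that of pmelb without replicate 1 or 4 of ZT0 or replicate 2 or 3 of ZT-3, where its change was under the fold threshold. No housekeeping gene was called among 86 ribosomal protein genes (median 0.01), 86 respiratory chain genes (0.04) and 41 proteasome genes (-0.06). Also without a call were 34 complement genes (median 0.06). Among 25 cytokine and acute phase genes, irg1l fell by 0.71 (adjusted p = 0.037), at 0.279 without replicate 4 of ZT0. The chemokine gene cxcl8a was past the thresholds at -0.57 (adjusted p = 0.099), but its pools overlapped, with 1.14, 1.22, 0.782 and 0.664 CPM at ZT0 and 0.743, 0.871, 1.23 and 1.55 CPM at ZT-3, and its call was lost when any single pool was left out (adjusted p up to 0.405).

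The wildtype pools of ZT+2.5 place these levels in the morning that follows, with ZT-3, ZT0 and ZT+2.5 given as mean ± SD of 4 pools. The genes were chosen after their values were seen, and no test was made of the later step, which shares the ZT0 pools. For per2 the levels were 4.81 ± 0.255, 12.7 ± 1.70 and 183 ± 9.65 CPM, and for cry3b, which fell by ZT0, they were 6.21 ± 0.309, 3.76 ± 0.510 and 21.4 ± 1.86 CPM. The cone subunit pde6ha had 28.6 ± 2.22, 89.2 ± 21.8 and 323 ± 15.9 CPM, and serpinh1b had 20.5 ± 1.26, 36.2 ± 5.52 and 170.2 ± 6.63 CPM. In these 4 genes the mean at ZT+2.5 was far above both earlier means. In the next 3 genes the mean at ZT0 was the highest of the 3 times. Transcripts of camkk1b were at 3.91 ± 0.728, 31.8 ± 4.87 and 20.3 ± 1.87 CPM, those of rhcga at 30.4 ± 9.25, 111 ± 26.0 and 41.9 ± 11.95 CPM, and those of tefb at 73.9 ± 5.28, 105 ± 6.16 and 69.3 ± 3.15 CPM. The lowest mean was that of ZT+2.5 for the receptor gene nr1d4b, with 83.3 ± 11.1, 11.01 ± 1.12 and 2.28 ± 0.494 CPM, and for dbpb, with 279.7 ± 38.1, 172 ± 6.20 and 63.7 ± 4.76 CPM. The atrophy gene trim63a had 53.5 ± 6.31, 23.6 ± 0.940 and 27.4 ± 4.34 CPM.

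**Figure D4:**
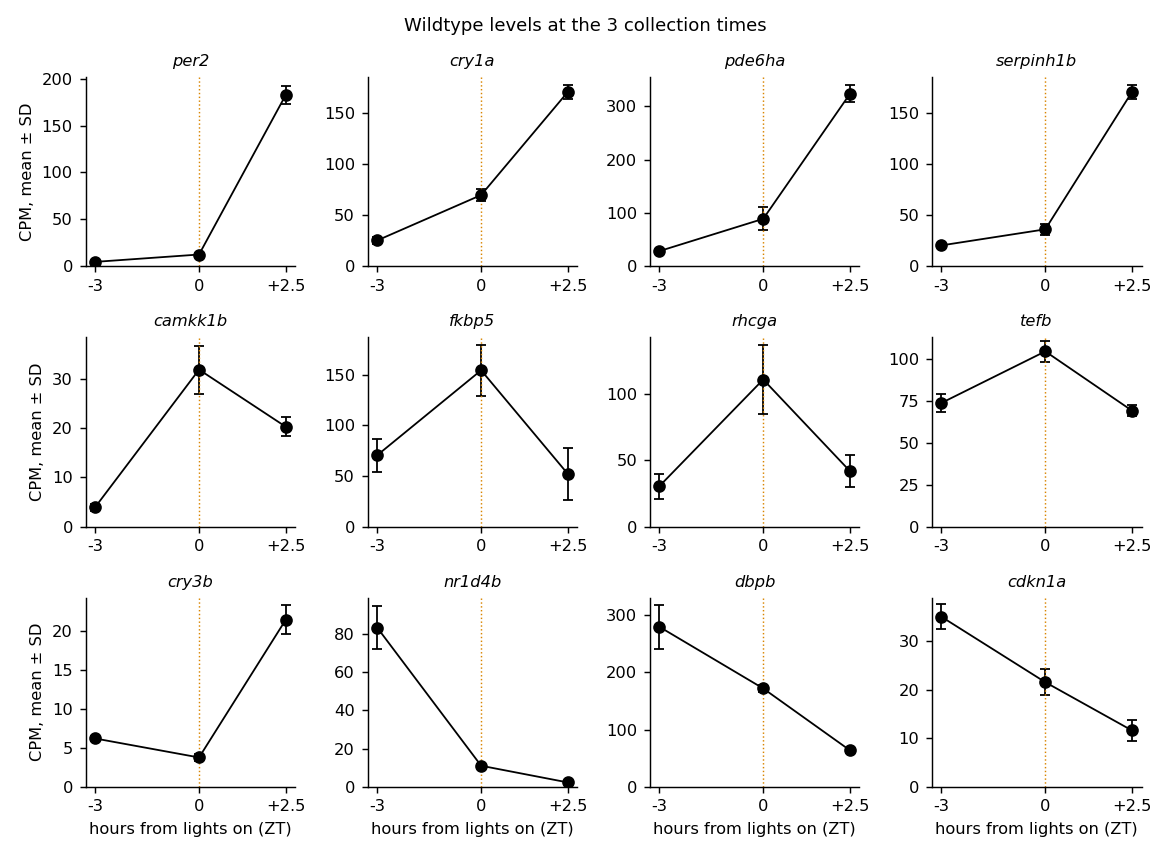
Mean levels in CPM (y axis, from 0) of 12 genes in wildtype pools at ZT-3, ZT0 and ZT+2.5 (x axis, hours from lights on), with bars for the SD of 4 pools and a dotted line at lights on. The mean of per2 was 4.81 CPM at ZT-3, 12.7 CPM at ZT0 and 183 CPM at ZT+2.5, while rhcga peaked at ZT0 with 111 CPM.

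The same step was then read in klf9-/- larvae, whose 8 pools are separate from the wildtype pools, although both fits use PC1 scores of the whole series. The targeted gene measured 20.4 ± 2.07 CPM at ZT0 and 16.4 ± 4.00 CPM at ZT-3 in klf9-/- pools, against 64.2 ± 9.70 CPM and 49.7 ± 12.3 CPM in wildtype pools (mean ± SD, n = 4). In klf9-/- larvae, 604 of 22274 genes (2.71%) rose and 240 (1.08%) fell. Of the 292 genes that rose in wildtype larvae, 289 were tested in klf9-/- larvae. Their change was positive in 276 (95.5%, against 49.6% of all tested genes), and 214 were called higher. Of the 143 that fell in wildtype larvae, the change in klf9-/- larvae was negative in 137 (95.8%, against 50.4%), and 88 were called lower. The median was 0.74 in wildtype and 0.71 in klf9-/- larvae for the genes higher in wildtype, and -0.69 in wildtype and -0.60 in klf9-/- larvae for the lower ones. For camkk1b the log2 fold change was 3.07 in wildtype and 3.06 in klf9-/- larvae, for cry1b 2.37 and 2.50, for rhcgl1 2.41 and 2.84, and for nr1d4a -3.31 and -3.60. For fkbp5 it was 1.17 in wildtype and 1.17 in klf9-/- larvae (adjusted p = 0.075).

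The difference between the changes of the genotypes was past an adjusted p of 0.1 for 2 of 22953 genes (0.00871%), in edgeR's quasi-likelihood test of the interaction, while 1245 had an unadjusted p under 0.05 and DESeq2 gave 45. The matrilin gene of cartilage matrix, matn1 (ENSDARG00000030215), rose in wildtype larvae, with 109, 106, 132 and 114 CPM at ZT0, against 66.6, 66.4, 67.9 and 68.4 CPM at ZT-3 (log2 fold change 0.79, adjusted p = 5.1e-04). In klf9-/- larvae it had 105 ± 7.74 CPM at ZT0 and 146 ± 31.6 CPM at ZT-3 (mean ± SD, n = 4), a log2 fold change of -0.47. The difference was 1.203 (adjusted p = 0.033). It was lost without replicate 2 or 4 of wildtype ZT-3 or replicate 3 or 4 of klf9-/- ZT0 (adjusted p 0.117 to 0.241). For abcb5 (ENSDARG00000021787), a membrane transporter gene, the change was 0.42 in wildtype and 0.94 in klf9-/- larvae, a difference of -0.54 (adjusted p = 0.033). It was lost without replicate 2 or 4 of wildtype ZT-3 or replicate 4 of klf9-/- ZT0 (0.117 to 0.21) and without the PC1 covariate (0.991). One gene called higher in wildtype was called lower in klf9-/- larvae. That was pcolceb, an enhancer of procollagen processing, with 0.66 in wildtype (adjusted p = 0.019) and -0.55 in klf9-/- larvae (adjusted p = 0.013), and the difference itself had an adjusted p of 0.14. Without replicate 4 of ZT-3 its adjusted p in wildtype was 0.197. The other genes among the 5 smallest p-values of the difference were otos and si:dkeyp-57d7.4. The change of otos was 0.29 in wildtype and -0.22 in klf9-/- larvae, and that of si:dkeyp-57d7.4 was -0.67 and -1.09. Each of these differences had an adjusted p of 0.14. Not among those 5 was tnxba, a tenascin gene of the tendon list. It rose in wildtype by 0.74 (adjusted p = 0.0033), and measured -0.36 in klf9-/- larvae (adjusted p = 0.18). That difference had an adjusted p of 0.277.

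**Figure D5:**
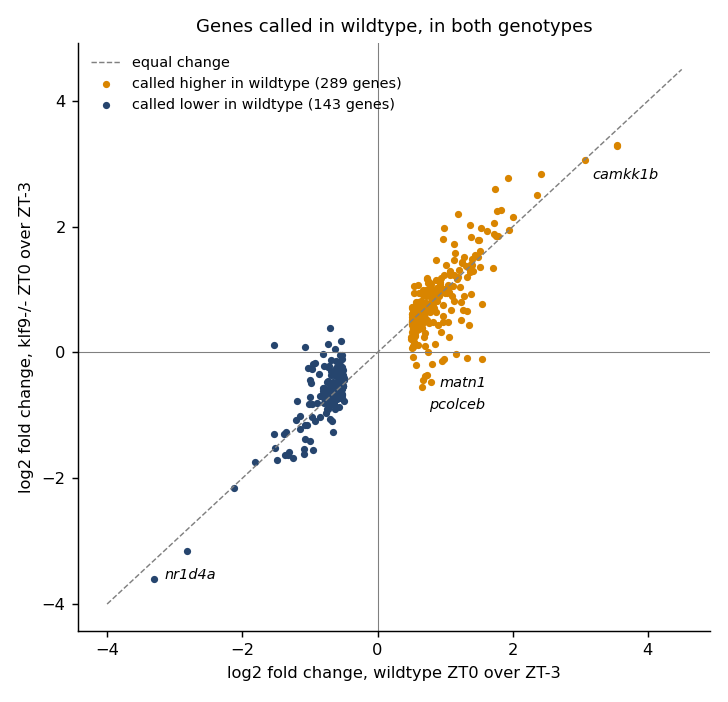
Log2 fold change of ZT0 over ZT-3 in wildtype (x axis) and in klf9-/- larvae (y axis) for the genes called in wildtype and tested in both, with a dashed line where the changes are equal. Of 289 genes higher in wildtype, 276 lay above zero on the y axis, and of 143 lower ones 137 lay below it, with matn1 and pcolceb among the exceptions.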

How the data were processed

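RNA-seq was run on pools of 6 whole larvae in 6 groups of 4 pools (2 genotypes and 3 times), of which wildtype ZT0 and ZT-3 were compared here. The authors trimmed single-end reads with Trim Galore 0.6.5, aligned them with STAR 2.7.5c and deposited an expected count per gene (an estimated count from RSEM 1.3.3), with genes of the same symbol summed. RSEM divides reads between near-identical copies, and whether counting used strand is not given in the sources used here, so overlapping and antisense genes cannot be told apart. The deposited log2 values (rlog of DESeq2 1.30.1, 25362 genes) were used only for PC1. It held 21.68% of the variance, less than the study reports for its own PC1. The authors' tables of fold changes and p-values between groups were not used. No column of per-sample values lacked a sample.

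Expected counts were rounded, filtered by group with filterByExpr, scaled by TMM (factors 0.957 to 1.04) and tested with edgeR 4.0.16 (limma 3.58.1, R 4.3.3), by the robust quasi-likelihood test, each pool's PC1 score being a covariate, with Benjamini-Hochberg adjustment over all genes tested. A call took an adjusted p no higher than 0.1 together with a log2 change no smaller than 0.5, the thresholds of the study. The steps were also run on simulated counts with a fixed size of change and no PC1 effect. That run cannot check the PC1 covariate or calls near the fold threshold. DESeq2 1.42.0, other scalings, filters, covariates and sample sets, a replicate block and leaving out each pool were the alternatives. Single measures were compared by exact permutation tests. The fitted precision is that of 4 pools a group at 49713549 to 64452247 expected counts each.

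Groups and 49 gene lists were chosen with earlier results of these data known, and 8 more lists were added after values were seen. The rule for naming genes took klf9 and the clock genes the study names, and called members of the clock, light and hormone lists. It took up to 4 called members of smallest p in other lists, and the 5 smallest p-values of the difference between genotypes. It also took the 15 largest rises and falls of named genes with at least 1 CPM and no overlap between groups. The extremes of lists without a call were the last part. Some of these genes are left out of the text, among them cyp2k18 and many of the list extremes. Genes named outside that rule are said to be so, and a result that the rule would name is not reported here. Promoter sequences were not used here.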

Additional observations from a re-analysis of the deposited data

Results flagged for a closer look

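In 256 groups of 4 pools, over 120 genes and 8 sample measures, 10 held a pool far from the rest, where chance gives about 1 group in 20. The highest of the ZT0 pools stood apart for pde6ha (121.8 CPM, the others 75.6 to 79.85), bhlhe40 (173.2 CPM, the others 149.7 to 153), clocka (11.74 CPM, the others 9.684 to 10.03) and aipl2, a chaperone gene of photoreceptors (7.726 CPM, the others 6.517 to 6.702). The lowest ZT-3 pool stood apart for nfil3-6 (1.873 CPM, the others 2.881 to 3.045), per2 (4.433 CPM, the others 4.913 to 4.979), irbpl (1.169 CPM, the others 2.072 to 2.169), rp1l1b (12.29 CPM, the others 16.95 to 17.66) and si:dkeyp-57d7.4 (42.81 CPM, the others 56.9 to 57.68). The A260/280 ratio was 2.12 in one ZT0 pool and 2.13 in the others, a step of the last digit recorded.

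The change between the times differed between genotypes for 2 genes by the interaction test. The difference of the log2 changes, wildtype minus klf9-/-, was 1.203 for matn1 and -0.5358 for abcb5, each with an adjusted p of 0.033 from edgeR's quasi-likelihood test, and both were lost when single pools were left out.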

How the results depend on the processing

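With 292 genes higher and 143 lower, other scalings, no filter on low counts, DESeq2, no PC1 covariate, PC1 of the 8 pools and fits with more samples gave 273 to 323 higher and 105 to 177 lower genes. The genes were not all the same. Of the 435 calls, 300 were kept without PC1, 357 with all 24 samples and 364 with the 12 wildtype pools. The other scalings kept 434 and 419, no filter 402, DESeq2 391 and PC1 of the 8 pools 379. Leaving out each pool in turn gave 123 to 425 higher and 39 to 255 lower genes, and kept 146 to 397 of the 435 calls. With no fold-change threshold 823 were higher and 590 lower. Before PC1 was removed, same-numbered pools did not deviate together (r of -0.44 to -0.041 over genes, and no pool correlated best with its own number). PC1 scores ran in opposite replicate order at ZT0 and ZT-3. After PC1 was removed r was 0.28, 0.18, -0.16 and 0.49 for replicates 1 to 4, and best matches were not sought. These values do not settle whether the numbers are pairs, and the main fit did not pair them. With the replicate number as a block, 170 genes were higher and 60 lower with PC1, and 67 and 26 without PC1. The block kept 223 of the 435 calls with PC1 and 93 without. Of the genes the change of which differed between genotypes, 2 in all, DESeq2 gave 45, the fit without PC1 gave 1, the replicate block 0, and leaving out pools 0 to 5. No named gene changed its sign as a called gene under any alternative run. Over the combinations of a named gene and an alternative, a call was lost in 310, gained in 30, and held or stayed absent in 2968, leaving out those where DESeq2 gave no adjusted p. Among the calls lost outside pools left out and the block were those of cyp2ad2 and dio3b in the fit of the 12 wildtype pools (adjusted p = 0.135 and 0.12). The search of promoters for motifs was not run. Depth limits the scarce genes, such as asb15b with at most 29 counts in a ZT0 pool.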
